A study of Mus musculus with 4 samples.

Results

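The late cornified envelope 1 (Lce1) genes form a tandem family on mouse chromosome 3. The family was chosen on measured values, since the rise of its member Lce1a2 from the Dox (-) to the Dox (+) library was already known, and its members were then taken as a given list of 10 gene names. Of the 10 members (Lce1a1, Lce1a2, Lce1b, Lce1c, Lce1d, Lce1e, Lce1f, Lce1g, Lce1h and Lce1i), 9 had exons in the deposited exon table. They account for 18 of its 234718 exons, and for 9 of the 22823 genes with an expression level. The expression of Lce1a1 was not analysed here, and Lce1j, Lce1l and Lce1m, which carry the same name, were not on the list. Because values of Dox (+) against Dox (-) chose the family, that comparison is given as a description.

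Late cornified envelope proteins are small, cysteine-rich and glycine-rich proteins made by keratinocytes in the uppermost living layers of the epidermis. Transglutaminases cross-link them, together with loricrin, involucrin and small proline-rich proteins, into the cornified envelope that replaces the plasma membrane of dying skin cells. Their genes lie within the epidermal differentiation complex, a block of neighbouring genes for envelope proteins and calcium-binding S100 proteins. Fibroblasts and melanocytes are not known for making these proteins.

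Polyadenylated RNA of mouse embryonic fibroblasts (MEFs) was sequenced to ask how induction of MITF, the master regulator of the melanocyte lineage, changed their transcriptome. The Dox (+) library came from Mitf knock-in MEFs at passage 5 that received doxycycline (Dox) for 6 days, and the Dox (-) library from the same knock-in MEFs at passage 5 without Dox. Both knock-in cultures carried ROSA26-M2rtTA, which supplies the Dox-dependent transactivator throughout the body, and Col1a1-TetO-Mitf, a Dox-responsive transgene of the melanocyte isoform of Mitf, beside a constitutive mCherry marker. The library labelled MEF came, by its label, from wild-type MEFs at passage 3. Which wild-type MEF culture of the study it stands for could not be settled, and each value against MEF refers to that library alone. The knock-in MEFs were grown from chimeric embryos made with 1 targeted embryonic stem cell clone, so cells of the host blastocyst may have been present as far as they escaped selection. Primary melanocytes (PMel) at passage 5 were the other library of the series and were not analysed here.

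Each condition had 1 library, so no difference below has a replicate check and no p-value is given. Levels are RPKM, reads per kilobase of exon scaled to the depth of the library. RPKM values gave back whole reads for 97.2% to 97.4% of the values under 200 reads, to within 0.05 read, at depths of 45000000 reads for MEF and Dox (-) and 44000000 for Dox (+). The intervals given with reads, shares and folds are exact 95% intervals (Poisson for reads, Clopper-Pearson for shares and folds) and cover counting error only. Mitf checked the labels, with 1.52 RPKM in MEF, 30.8 in Dox (-) and 1544 in Dox (+) on its highest exon. Macrophage markers summed to 53.4 RPKM in MEF, 14683 in Dox (-) and 541 in Dox (+), and all 8 of them (Lyz2, Csf1r, Cd68, Laptm5, Aif1, Ptprc, Adgre1 and Tyrobp) were over 4-fold lower in Dox (+) than in Dox (-). Fibroblast markers summed to 18350, 45433 and 11943 RPKM in the same order, and Col1a1, Col1a2, Col3a1 and Lum were called lower in Dox (+). Part of each difference between these libraries may lie in their cell composition, since in bulk RNA fewer cells of a type and less RNA per cell cannot be told apart.

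The 10 genes spanned 132 kb of the mm10 genome, chr3:92646535-92778899, with 9 on the minus strand and Lce1c on the plus strand. Each gene had 2 annotated exons. Exon 1 was short (42 to 55 bp) and held only untranslated sequence, and exon 2 held the whole coding sequence. The members are close copies of each other. Over 45 pairs the transcripts were 58.5% to 89.6% identical, with a median of 74.6%, and the coding sequences 75.1% to 95.7%, with a median of 86.8%. Identity was counted over all alignment columns, gaps included. This lowers the transcript values of Lce1g, the gene with the most reads, whose transcript is the longest at 925 bases. In coding sequence Lce1g was between 78.2% (Lce1d) and 91.2% (Lce1a1) identical to the other members. The first 60 coding bases of 5 members are shown as an example of a stretch that is much alike in the family. They are read from GENCODE M21 transcripts, and capitals mark the bases that differ from Lce1g.
Lce1g: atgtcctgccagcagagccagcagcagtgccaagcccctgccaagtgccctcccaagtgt
Lce1h: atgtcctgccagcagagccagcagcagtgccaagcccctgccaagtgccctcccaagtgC
Lce1i: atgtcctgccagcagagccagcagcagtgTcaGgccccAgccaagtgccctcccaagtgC
Lce1a2: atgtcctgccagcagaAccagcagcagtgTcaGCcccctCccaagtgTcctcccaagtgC
Lce1e: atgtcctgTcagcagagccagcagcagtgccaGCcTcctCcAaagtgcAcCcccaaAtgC

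Over these bases Lce1h differed from Lce1g at 1 position, Lce1i at 4, Lce1a2 at 7 and Lce1e at 10. Of all 50-base windows of a member's transcript, between 15.0% (Lce1a2 and Lce1f) and 27.1% (Lce1i) also occurred letter for letter in the transcript of another gene. With up to 2 mismatches allowed, the share of windows found in another Lce or Crct1 transcript ran from 53.4% in Lce1d to 80.1% in Lce1i. For Lce1g it was 57.8%, with Lce1h as its closest copy, and 367 windows of its exon 2 had no such match. For Lce1a2 it was 56.8%, with Lce1a1 as its closest copy at 88.0% transcript identity. How the authors treated reads that align to several copies is not given in the sources used here, so the values of single members are uncertain and need not be independent of each other.

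**Figure D1:**
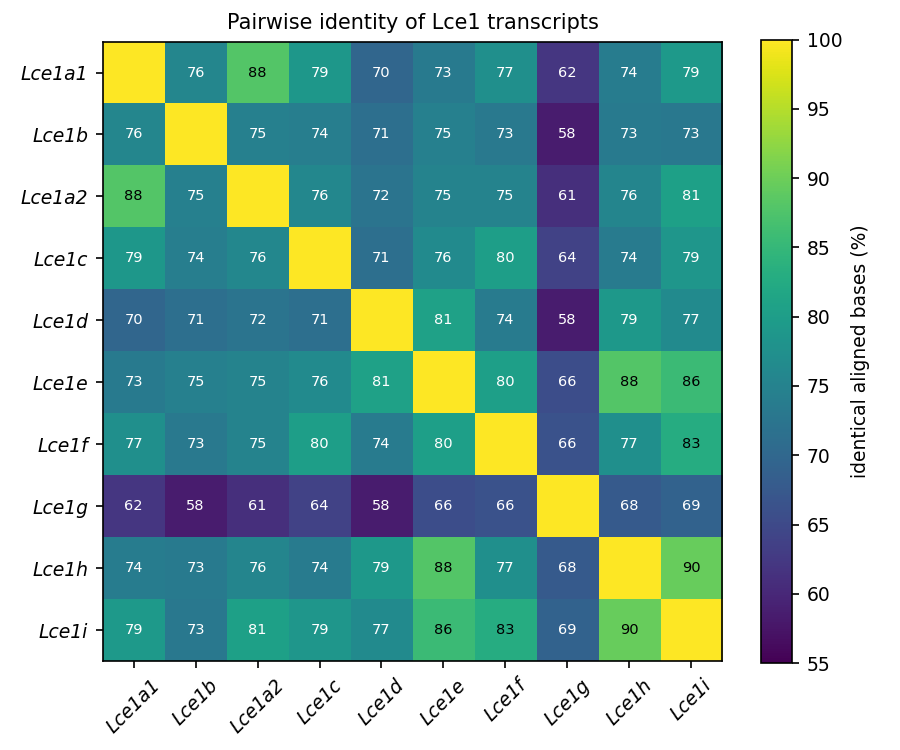
Identity between the transcripts of the 10 Lce1 genes, as the percentage of alignment columns, gaps included, with identical bases for each pair (both axes list the genes in chromosome order). The row of Lce1g is the darkest, Lce1h and Lce1i are the most alike at 89.6%, and Lce1d and Lce1g the least alike at 58.5%.

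In the library labelled MEF, none of the 18 exons had a read. The floor of 3 reads used for a count of 0 corresponds at this depth to 0.111 RPKM on exon 2 of Lce1b, the shortest exon 2, and to 0.0763 RPKM on that of Lce1g, the longest. In Dox (-) MEFs 4 members had reads, namely the neighbours Lce1f, Lce1g, Lce1h and Lce1i at one end of the cluster. In Dox (+) MEFs each of the 9 members had reads on at least 1 exon. Summed over exon 2 of the 9 genes, reads numbered 0 in MEF, 110 in Dox (-) and 1785 in Dox (+), a 16.6-fold difference between Dox (+) and Dox (-) after scaling to depth (13.7 to 20.3). The Dox (+) sum was at least 609-fold above MEF and the Dox (-) sum at least 36.7-fold, both taken against a floor of 3 reads. Without Lce1g the fold between Dox (+) and Dox (-) was 5.96 (4.61 to 7.81), and without Lce1g and Lce1a2 it was 1.59 (1.16 to 2.18), from 107 reads against 69. Without Lce1f as well, it was 1.49 (0.935 to 2.39), an interval that includes equal levels. Lce1g and Lce1a2 thus held most of the difference.

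**Figure D2:**
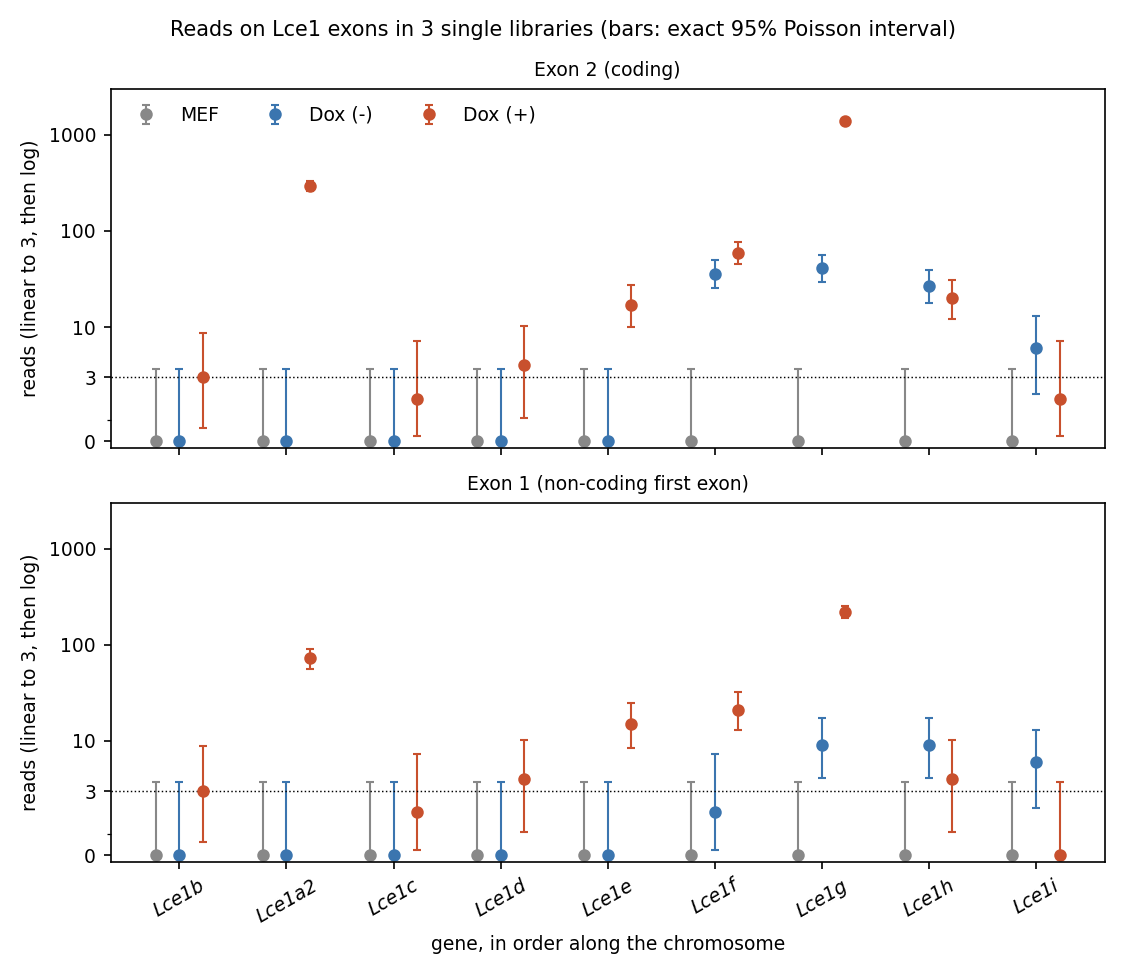
Reads on exon 2 (upper panel) and exon 1 (lower panel) of the 9 measured Lce1 genes in chromosome order, in 1 library each of MEF, Dox (-) and Dox (+). The read axis is linear up to the dotted floor of 3 reads and logarithmic above it, and bars are exact 95% Poisson intervals. Lce1g and Lce1a2 stand far above the others in Dox (+), MEF is at 0 throughout, and Dox (-) has reads only from Lce1f to Lce1i.

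Lce1g, the member with the highest level, had 0 reads on exon 2 in MEF, 41 in Dox (-) and 1383 in Dox (+), which is 0, 1.04 and 36.0 RPKM. Dox (+) was 34.5-fold above Dox (-) (25.3 to 48.3) and at least 471-fold above MEF. On exon 1 its reads were 0, 9 and 219, and the fold between Dox (+) and Dox (-) was 24.9 (12.9 to 55.2). Both exons of Lce1g therefore rose by similar factors, with intervals that overlap. Of the windows that start in its short exon 1, 94.1% were shared with other copies, against 55.5% of those that start in exon 2. Most windows that start in exon 1 run into exon 2, so the first share does not describe exon 1 alone.

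Lce1a2 was at 0 reads on both exons in MEF and in Dox (-). In Dox (+) it had 295 reads on exon 2, or 10.1 RPKM, and 72 on exon 1, or 32.1 RPKM. The fold over Dox (-) was at least 100.6 on exon 2 and at least 24.5 on exon 1. Unlike Lce1g, it gave no reads in the uninduced knock-in MEFs, where the floor of 3 reads corresponds to 0.1004 RPKM on exon 2. Lce1e had the same pattern at a lower level, with 0 reads in MEF and Dox (-) and 17 on exon 2 in Dox (+), or 0.585 RPKM. Its fold over Dox (-) was at least 5.80.

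Lce1f lies between the members that Dox (-) lacked and those it contained. It had 0 reads on exon 2 in MEF, 36 in Dox (-) and 59 in Dox (+), a fold of 1.68 between the knock-in libraries (1.09 to 2.61). On exon 1 its reads were 0, 2 and 21, a fold of 10.7 (2.62 to 94.5). Its 2 exons thus gave different sizes of change, although the lower end of the exon 1 interval only just passes the upper end of the exon 2 interval. Its fold of over 4, used below, compares different exons, since the highest exon was exon 1 in Dox (+) (11.4 RPKM) and exon 2 in Dox (-) (1.17 RPKM). In Dox (-) exon 1 had 1.06 RPKM. The call thus rests on the level of exon 1 in Dox (+).

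Lce1h and Lce1i were the members that were not higher in Dox (+). Lce1h had 0 reads on exon 2 in MEF, 27 in Dox (-) and 20 in Dox (+), and the fold of 0.758 had an interval from 0.403 to 1.40. Lce1i had 0, 6 and 2 reads there, with a fold of 0.341 (0.0336 to 1.91). On exon 2 neither difference was larger than counting error. On exon 1 Lce1h had 0, 9 and 4 reads, a fold of 0.455 (0.102 to 1.63). Lce1i had 0, 6 and 0 reads on exon 1, a fold of at most 0.511 against the floor. Lce1h starts its coding sequence almost as Lce1g does and lies next to it on the same strand, and the intervals of their folds are far apart.

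The other 3 members stayed near the floor. Lce1b had 3 reads on exon 2 in Dox (+), Lce1c 2 and Lce1d 4, with 0 in both other libraries. For Lce1b and Lce1c no fold is given, and for Lce1d it was at least 1.36. In each of these 3 genes exon 1 had as many reads as exon 2, and in Lce1e it had 15 against 17. In Lce1a2 the exon 1 reads were 24.4% of the exon 2 reads, and in Lce1g 15.8%. Whether single reads were counted on both exons or on several copies was not tested.

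The make-up of the family differed between the knock-in libraries. In Dox (-), Lce1g held 37.3% of the exon 2 reads of the family (28.2 to 47.0), Lce1f 32.7% (24.1 to 42.3), Lce1h 24.5% (16.8 to 33.7) and Lce1i 5.45% (2.03 to 11.5). The first 3 of these do not differ beyond their intervals. In Dox (+), Lce1g held 77.5% (75.5 to 79.4), Lce1a2 16.5% (14.8 to 18.3), Lce1f 3.31% (2.53 to 4.24) and Lce1h 1.12% (0.686 to 1.73). The intervals of these 4 members in Dox (+) do not overlap each other, so that the order among them was set beyond counting error. Lce1e held 0.952% (0.556 to 1.52), which overlaps the interval of Lce1h, so the order of Lce1h and Lce1e was not set. By RPKM on exon 2, which accounts for length, the order in Dox (+) was also Lce1g (36.0), Lce1a2 (10.1), Lce1f (1.95), Lce1h (0.698) and Lce1e (0.585). In Dox (-) it was Lce1f (1.17), Lce1g (1.04), Lce1h (0.922) and Lce1i (0.196).

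**Figure D3:**
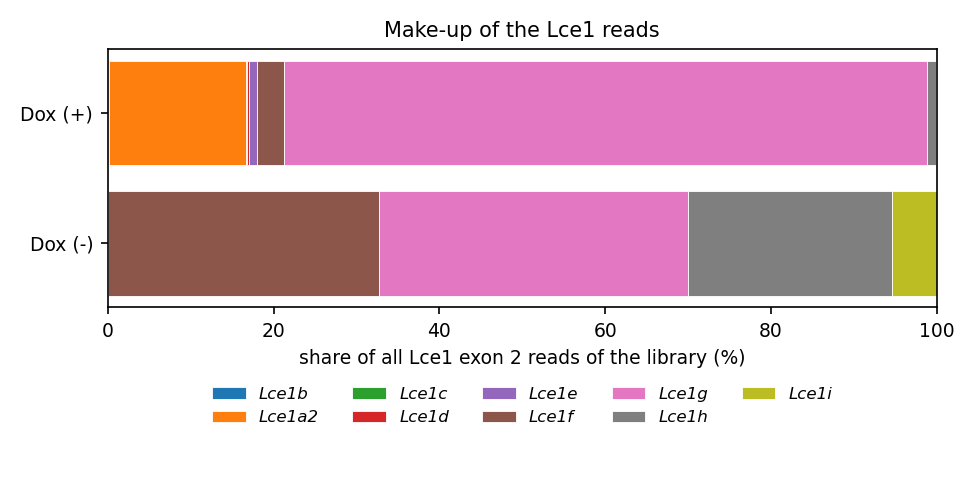
Share of the family's exon 2 reads that fell on each Lce1 gene, in percent of 1785 reads in Dox (+) and 110 reads in Dox (-), 1 library each. Lce1g takes 77.5% in Dox (+) against 37.3% in Dox (-), and Lce1a2 appears in Dox (+) alone.

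At the level of genes, the level of a gene is that of its highest exon, and genes are called if they pass 10 RPKM in either library and differ more than 4-fold. For all 3 members called below, the highest exon in Dox (+) was exon 1. In Dox (+) against Dox (-), 3 of the 9 measured members passed 10 RPKM, and these 3 (Lce1a2, Lce1f and Lce1g) were called higher. The background was 1.64% of 13300 genes called higher and 5.41% called lower, and 0 members were called lower. Since this comparison chose the family and a member at 0 in Dox (-) passes the filter only through Dox (+), nothing is read from that count. On the scale of log2(RPKM + 1), which understates the change of low genes, the highest exon of Lce1a2 differed by 5.05, of Lce1g by 4.32, of Lce1e by 2.94 and of Lce1f by 2.51. The median over the 9 members was 1.51, with 7 members above 0 and 2 below. This median is the value of Lce1d, which had 4 reads on exon 1 in Dox (+) and 0 in Dox (-). The median over all genes tested was 0.23, but it covers only genes that passed 10 RPKM, as 3 of the 9 members did. The 2 medians are therefore not over like sets, and nothing is read from their difference. With genes at 0 reads taken at their bound, the median over the 7 members with a fold was 1.68-fold on exon 2 and 5.11-fold on exon 1.

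Against MEF, Dox (+) MEFs again had Lce1a2, Lce1f and Lce1g called higher, where 6.56% of 12935 genes were. This comparison shares the Dox (+) library with the one above. With each member at 0 reads in MEF, a member could pass 10 RPKM only through Dox (+) and could not be called lower, so nothing is read from this count either. In Dox (-) against MEF, which did not enter the choice of the family but shares its Dox (-) library with the comparison that did, 0 of the 9 members passed 10 RPKM, so 0 could be called, where 8.26% of 13227 genes were called higher. By reads, exon 2 was still at least 13.7-fold higher in Dox (-) than in MEF for Lce1g, at least 12-fold for Lce1f, at least 9-fold for Lce1h and at least 2-fold for Lce1i. The 2 libraries also differed in passage, genotype and macrophage marker level, and the part of each in these values cannot be told apart.

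The late cornified envelope genes outside the family were mostly near 0. Of 13 listed, 10 were measured and 1 passed 10 RPKM. That gene was Crct1, which encodes another small cysteine-rich protein of the complex, and its highest exon had 4.94 RPKM in MEF, 18.1 in Dox (-) and 234 in Dox (+). Its longest exon had 109, 380 and 4084 reads, a fold of 10.99 between Dox (+) and Dox (-) (9.89 to 12.2), and unlike the Lce1 genes it was present in MEF. Crct1 was the only one of these 10 to be called higher. Lce3e had 0, 0.946 and 1.45 RPKM in the same order, and Lce1l 0, 0.0713 and 1.45. By RPKM Lce1m went the other way, with 0, 1.01 and 0.0273, and Lce1j had 0, 0.159 and 0. On its longest exon Lce1m had 0, 2 and 1 reads, and Lce1j 0, 3 and 0. At or under the floor of 3 reads, neither has a direction that can be read. Lce3e had 0, 2 and 6 reads on its longest exon, and Lce1l 0, 2 and 12.

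The other genes of the epidermal differentiation complex were called about as often as genes at large. Of 41 listed, 28 were measured and 15 passed 10 RPKM, of which 0 were called higher and 1 was called lower, Sprr2k, a small proline-rich protein gene that went from 13.3 RPKM in Dox (-) to 2.27 in Dox (+). Over all genes tested, 7.05% were called in either direction. The median log2 difference of those 15 was 0.03. Below the threshold, S100a8 had 0, 0.680 and 9.70 RPKM in MEF, Dox (-) and Dox (+). Loricrin (Lor), the main partner protein of the envelope, had 0.454 RPKM in MEF, 0.907 in Dox (-) and 0.0527 in Dox (+). These values lie near the floor. The longest exon of Lor had 4, 5 and 4 reads, a fold of 0.818 between Dox (+) and Dox (-) (0.162 to 3.80). Involucrin (Ivl) had 0.321, 13.9 and 11.4 RPKM, so that it was present in both knock-in libraries at like levels. The genes with the highest levels were S100a6, S100a4 and S100a11, calcium-binding protein genes that many cell types express, and S100a6 had 13301, 8655 and 12799 RPKM.

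**Figure D4:**
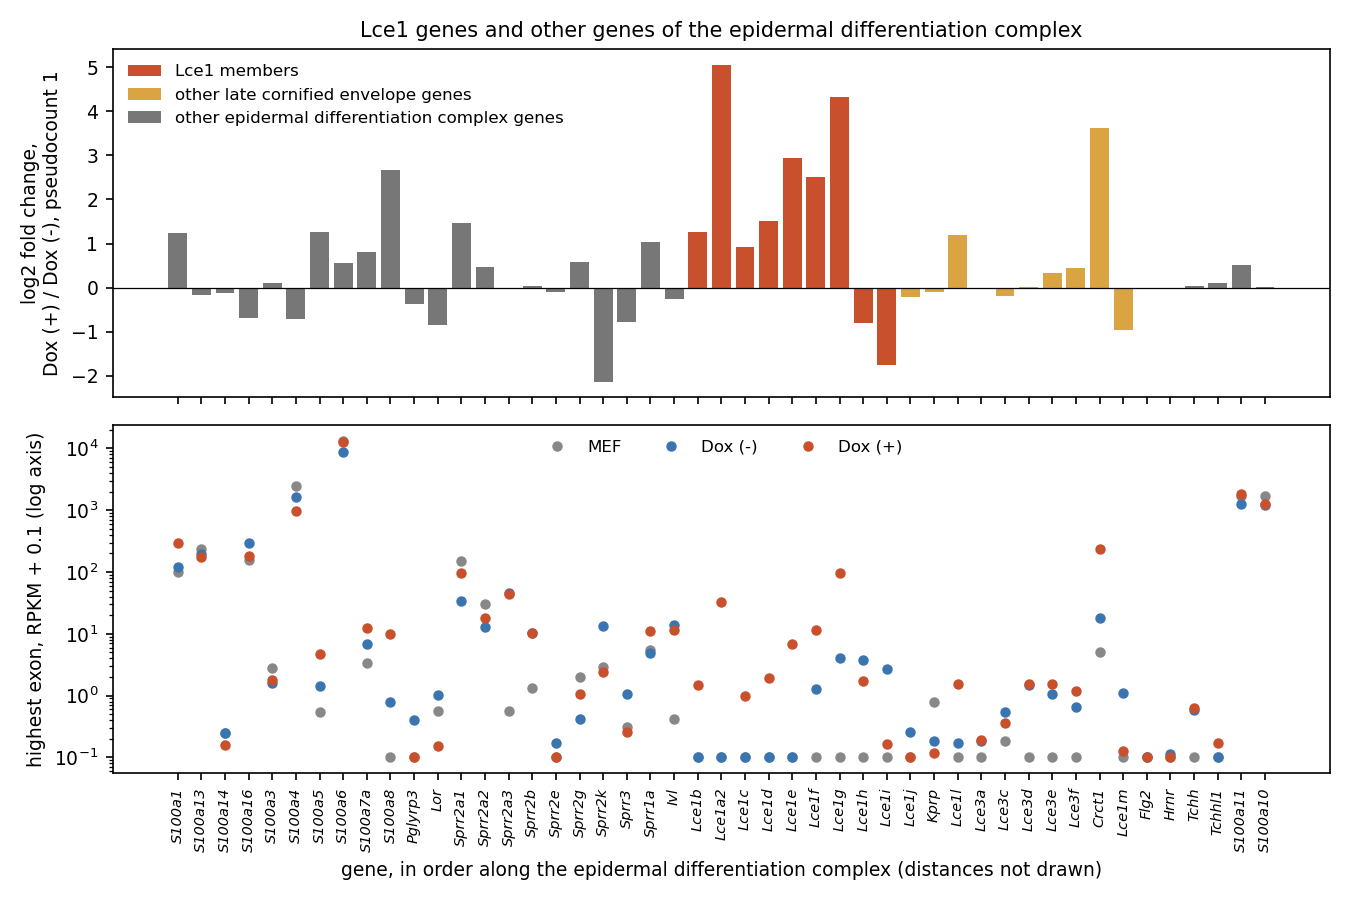
Genes of the epidermal differentiation complex in chromosome order (distances not drawn), with the log2 difference of Dox (+) and Dox (-) after adding 1 RPKM (upper panel) and the highest exon of each gene in RPKM plus 0.1 on a log axis in 1 library each of MEF, Dox (-) and Dox (+) (lower panel). The tall bars are those of Lce1a2 (5.05), Lce1g (4.32) and Crct1 (3.62), and among the other genes drawn Lce1e (2.94), Lce1f (2.51) and S100a8 come next.

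Of 14 genes for cross-linking enzymes and scaffold proteins of the envelope, 12 were measured, 3 passed 10 RPKM and 0 were called, too few to set against the 7.05% of all genes. Tgm2, a widely expressed transglutaminase, had 58.8 RPKM in MEF, 124 in Dox (-) and 166 in Dox (+). Cdsn, which encodes corneodesmosin, had 70.5, 7.78 and 18.4 RPKM, and Pkp1, which encodes a plakophilin of desmosomes, 6.96, 6.02 and 15.7. All 11 epidermal transcription factors listed were measured, 4 passed 10 RPKM and 0 were called, again too few to set against that share. Nfe2l2, which encodes NRF2, had the highest level with 212, 225 and 589 RPKM, followed by Klf4 with 69.5, 81.1 and 89.4 and by Zfp750 with 62.0, 51.3 and 75.2.

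Markers of the keratinocyte, the cell type that makes these proteins, differed from each other in their order over the libraries. Their summed level over 15 measured genes was 278 RPKM in MEF, 63.5 in Dox (-) and 146 in Dox (+). The largest part of the MEF sum was Perp, at 129 RPKM, while Krt1, Krt5 and Krt77 were at 0 in MEF. The sum therefore does not stand for each marker. Krt14, Krt16 and Krt17, 3 of the 4 that passed 10 RPKM, were called higher in Dox (+) than in Dox (-). None of the 3 passed 10 RPKM on its longest exon. Their highest exons had like levels, at 32.8, 33.1 and 35.9 RPKM in MEF and 26.9, 25.1 and 28.8 in Dox (+). Whether the same reads were counted on more than 1 of these genes was not tested. The 3 calls and their parts of the sum may therefore not be separate, and they are not set against the share of all genes. Krt14, a keratin of the basal layer, had 32.8, 2.12 and 26.9 RPKM in MEF, Dox (-) and Dox (+), so that its level in MEF was not below that in Dox (+). In Dox (+), Perp had 51.3 RPKM, Krt17 28.8, Krt16 25.1, Krt10 4.21 and Krt15 3.50. At the low end of the same list, Cdh1 had 0.697, Trp63 0.288, Krt1 0.275 and Krt5 0.206 RPKM, and Krt77 was at 0. Of the 4 markers of simple epithelium, Krt19 was called higher and Krt7 lower in Dox (+), and their sum was 190 RPKM in MEF, 123 in Dox (-) and 79.8 in Dox (+). Melanocyte markers summed to 4.96, 6.98 and 269 RPKM, with Tyrp1, Mlana and Trpm1 called higher of the 4 that passed 10 RPKM. The part of any of these cell types in the Lce1 levels was not tested.

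Stretches of 120 bases just before the start of 6 members are shown, because MITF, the factor induced here, is known to bind the letters CATGTG and CACGTG. The sequences are RefSeq promoters of GRCm38.p6, each on the minus strand and ending at the base before the start. Capitals mark CATGTG and the TATA-like letters ATAAAA.
Lce1g, chr3:92752339-92752458: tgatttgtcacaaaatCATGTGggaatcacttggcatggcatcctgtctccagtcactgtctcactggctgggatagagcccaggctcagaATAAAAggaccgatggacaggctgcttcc
Lce1a2, chr3:92670316-92670435: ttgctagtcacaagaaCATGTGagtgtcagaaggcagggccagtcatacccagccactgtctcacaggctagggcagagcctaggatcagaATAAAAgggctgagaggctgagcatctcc
Lce1e, chr3:92709075-92709194: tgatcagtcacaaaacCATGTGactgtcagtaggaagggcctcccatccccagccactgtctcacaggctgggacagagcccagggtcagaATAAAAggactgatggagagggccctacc
Lce1h, chr3:92765066-92765185: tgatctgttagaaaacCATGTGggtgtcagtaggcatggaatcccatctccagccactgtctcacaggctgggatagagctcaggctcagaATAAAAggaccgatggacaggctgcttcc
Lce1i, chr3:92778900-92779019: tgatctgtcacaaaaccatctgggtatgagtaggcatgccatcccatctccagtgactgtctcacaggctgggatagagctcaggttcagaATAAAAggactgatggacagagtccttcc
Lce1d, chr3:92687211-92687330: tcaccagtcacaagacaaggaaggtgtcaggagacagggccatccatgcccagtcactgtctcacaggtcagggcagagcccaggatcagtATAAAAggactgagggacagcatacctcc

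Promoters of 250 bases before to 50 bases after the start were found for 9 of the 10 members, without Lce1f. Read on both strands, CATGTG, which reads CACATG on the opposite strand, occurred in 7 of the 9, where 14.2% of 32817 promoters of the same length held it. Its first base lay 104 bases before the start in Lce1a2, Lce1c, Lce1e, Lce1g and Lce1h, and 99 before it in Lce1a1. Lce1b held the reverse reading, 103 and 239 bases before the start, and Lce1d and Lce1i held neither. The letters CACGTG occurred in 0 of the 9 members, against 7.15% of all promoters. ATAAAA lay 29 bases before the start in 8 of the 9, where 18.5% of all promoters held it or its opposite-strand reading TTTTAT, and no matches overlapped each other. As copies of one another these promoters are not independent, and a match of letters is not a site of binding. Lce1g and Lce1h held the same letters at the same distance, and their exon 2 folds between Dox (+) and Dox (-) were 34.5 and 0.758. Binding of MITF was not measured here, and the part of these letters in any fold was not tested.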

How the data were processed

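Polyadenylated RNA was sequenced from 1 library per condition. According to the methods and the submitters' processing notes, the authors aligned reads to mm10 with TopHat2 2.0.10, used bedtools for read counts on Ensembl exons, and divided these by exon length and by aligned reads, so that the deposited values are RPKM per exon. The handling of multi-mapped and split alignments is not given in the sources used here.

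Columns were assigned to libraries by their names. The table held 1 further column of values that matched no library label and was not used, so PMel was not analysed here. Exon identifiers were matched to GENCODE M21 (228132 of 234718 exons). Whole reads were recovered from RPKM as deposited by searching for the library depth that gave whole numbers. A gene level was its highest exon, as in the study's methods. A gene was called above 10 RPKM in at least 1 library at a fold above 4, with no pseudocount, and log2 differences used a pseudocount of 1 RPKM. Folds against 0 reads used a floor of 3 reads per library, and none was given where both libraries were at or under it. Intervals were exact at 95% and came from SciPy 1.17.1 under Python 3.11.15, with pandas 2.3.3, and covered counting error only. No test across libraries was possible with 1 library per condition. No count model was run, since it has no spread to estimate.

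The members and all lists (late cornified envelope, epidermal differentiation complex, cross-linking, transcription factor and cell type markers) were chosen with earlier results of these data known. All members are named, with Mitf, and of each list mainly the 3 genes with the highest level and those called.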

Additional observations from a re-analysis of the deposited data

How the results depend on the processing

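Each choice was changed in turn, and no Lce1 gene changed the sign of its log2 difference. The 3 Lce1 genes called higher in Dox (+) than in Dox (-), of 3 tested, became 6 of 8 at a threshold of 1 RPKM and 7 of 9 without a threshold, where the share of all genes rose from 1.64% to 2.74% and 5.94%. Under both settings 1 member, Lce1i, was called lower, at 6 reads on exon 1 in Dox (-) against 2 on exon 2 in Dox (+). The members added include Lce1b and Lce1d, and without a threshold Lce1c, at 3, 4 and 2 reads on exon 1 against 0 in Dox (-). This comparison chose the family, so nothing is read from these counts. Calls against MEF became 7 of 7 and 9 of 9 for Dox (+), and went from 0 to 4 under both of these settings for Dox (-). With 0 reads in MEF, each member tested had to be called higher, so nothing is read from these counts either. For the other epidermal differentiation complex genes, the 1 call (lower) of 15 tested became 2 of 18 at 1 RPKM (1 higher and 1 lower), 8 of 27 without a threshold, 4 of 15 at a fold of 2, 0 at a fold of 8 and 0 with a pseudocount of 5 added before the fold. At a fold of 2 the balance on the highest exon turned, with Sprr1a, Sprr2a1 and S100a1 higher and Sprr2k lower. The direction of Sprr2a1 depended on the exon, since on its longest exon Dox (+) was below Dox (-), at 0.231-fold (0.133 to 0.384). On their longest exons Sprr1a (2.36-fold), S100a1 (1.93-fold) and Sprr2k (0.120-fold) kept their direction. The share of all genes was 7.05% as reported, 11% at 1 RPKM, 20% without a threshold and 21.9% at a fold of 2. For keratinocyte markers the 3 calls became 5 at 1 RPKM (3 higher and 2 lower), 6 without a threshold (4 higher and 2 lower) and 0 on the longest exon. There Krt14, Krt16 and Krt17 fell below 10 RPKM, at 66, 35 and 22 reads in Dox (+) against 8, 2 and 2 in Dox (-). The median Lce1 log2 difference of 1.51 became 0.46 with a pseudocount of 5, 3.90 with a pseudocount of 0.1 and 0.19 on the longest exon.

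Lce1f was the member whose call depended on the choice, since on the longest exon and with a pseudocount of 5 its fold was below 4, and after rescaling its highest exon fell below 10 RPKM. Lce1a2 and Lce1g were then the 2 members called. Rescaling all libraries to a common median moved Dox (+) by 0.22 on the log2 scale relative to Dox (-), and the Lce1 median was then 1.38. A setting chosen after seeing the data kept only the 6 exons where most windows starting there had no near match in another copy. Each was an exon 1, and these windows mostly ran into exon 2, so this does not show that exon 1 itself is unshared. The setting left 6 genes without Lce1g, Lce1h and Lce1i, and Lce1a2 and Lce1f were called. Windows were searched in annotated transcripts, and the search of the genome and the comparisons with PMel were not run. No paired analysis was possible because each condition had 1 library. With a floor of 3 reads, levels of Lce1b, Lce1c and Lce1d could not be compared between libraries beyond the bounds given.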

Other observations

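Among 13577 other genes above 10 RPKM in at least 1 library, the profile over the 3 libraries nearest to the mean Lce1 profile, by Euclidean distance between centred log2(RPKM + 1) values, was that of Cobll1, at a distance of 0.0551. Cobll1, which encodes an actin-binding cordon-bleu-like protein, had 28.6 RPKM in MEF, 54.0 in Dox (-) and 178 in Dox (+). It was followed by Myo1d, an unconventional myosin gene, at 0.0948, Gm11483 at 0.0991, Amz1 at 0.109 and Slc6a8, the creatine transporter gene, at 0.111. These distances rest on 3 libraries and are given as a description. The mean Lce1 profile includes members near the floor, whose differences are understated after adding 1 RPKM. A small distance therefore does not mean a like fold. Cobll1 was present in MEF, where the Lce1 exons had 0 reads.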
